A study of Rattus norvegicus with 105 samples.

Results

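The 10 genes described here code for contractile and calcium-handling proteins of fast skeletal muscle fibres: the myosin heavy chains Myh4, Myh1 and Myh2, the myosin light chain Mylpf, the troponin subunits Tnnt3, Tnni2 and Tnnc2, the Z-disc protein Actn3, the calcium pump Atp2a1 and the calcium-binding protein Pvalb. They were picked as a named set of fast-fibre genes, with earlier results of these data known, and each was represented by the 1 probe set annotated to it, so that 10 of 22954 probe sets are reported. Mylpf stands in the gene table under its newer symbol Myl11. The arrays measured the gastrocnemius of male Sprague-Dawley rats that had been bought at an age of about 30 days, kept for at least 2 weeks, and then implanted with 2 metal pellets per limb, 4 per rat. The pellets were of tungsten, lead, nickel, iron, copper, cobalt, aluminum or depleted uranium, or of tantalum, which served as the implanted sham, and muscle was taken 1, 3, 6 or 12 months later. This gives 35 groups of 3 arrays; nickel at 12 months was not analysed here. Each array carried 250 ng of RNA pooled from 2 to 3 animals, so a p-value measures the spread between pools. All groups carry pellets, and muscle without an implant was not analysed here.

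Skeletal muscle is a mixture of slow fibres, which work for long periods on oxidative metabolism, and fast fibres, which contract quickly and fatigue sooner. Each fibre builds its sarcomere from its own set of isoforms: the heavy chain moves along actin, the troponin complex makes that movement depend on calcium, and the pump and the calcium-binding protein set how fast a fibre relaxes. In rodents Myh4, Myh1 and Myh2 mark the 2B, 2X and 2A fast fibres, of which 2A is the most oxidative, and the gastrocnemius is made mostly of fast fibres with a slow portion near its deep side. Fibre type shifts with nerve activity, load and age.

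The 3 fast myosin heavy chain genes lie next to each other on chromosome 10, and their proximal promoters are shown because their transcripts were measured by separate probe sets and can be compared change by change. The promoter of Tnni2 is shown beside them as that of a gene whose level differed between months. RefSeq promoter sequences of the rat assembly GRCr8 were matched for 9 of the 10 genes, and the 250 bases before the annotated gene start are printed 5′ to 3′. In the myosin promoters capitals mark the longest run of letters that all 3 share and each match to the letters TATAAA, which read TTTATA where the match lies on the other strand. In Tnni2 they mark the match to the E-box CANNTG, which binds factors of the MyoD family, and the TTTATA.
Myh4, chr10:52421898-52422147, plus strand: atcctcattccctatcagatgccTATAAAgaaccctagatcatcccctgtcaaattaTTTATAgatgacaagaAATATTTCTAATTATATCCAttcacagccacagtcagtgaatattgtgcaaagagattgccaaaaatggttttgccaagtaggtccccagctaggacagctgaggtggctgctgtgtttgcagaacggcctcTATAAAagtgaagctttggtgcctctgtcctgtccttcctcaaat
Myh1, chr10:52384662-52384911, plus strand: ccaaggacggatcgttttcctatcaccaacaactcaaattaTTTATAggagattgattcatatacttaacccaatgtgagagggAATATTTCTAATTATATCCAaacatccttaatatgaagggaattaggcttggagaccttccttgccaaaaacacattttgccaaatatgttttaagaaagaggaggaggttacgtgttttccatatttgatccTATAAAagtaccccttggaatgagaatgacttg
Myh2, chr10:52355489-52355738, plus strand: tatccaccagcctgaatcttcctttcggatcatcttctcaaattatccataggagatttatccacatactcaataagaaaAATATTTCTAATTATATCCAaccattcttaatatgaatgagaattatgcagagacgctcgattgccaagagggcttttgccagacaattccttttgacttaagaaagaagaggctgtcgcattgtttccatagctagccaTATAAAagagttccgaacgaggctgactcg
Tnni2, chr1:207024240-207024489, plus strand: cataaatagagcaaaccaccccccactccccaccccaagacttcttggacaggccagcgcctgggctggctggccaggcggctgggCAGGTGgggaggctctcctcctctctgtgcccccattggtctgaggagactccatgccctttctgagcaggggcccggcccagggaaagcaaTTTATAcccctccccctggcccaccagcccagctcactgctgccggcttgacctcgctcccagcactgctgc
The shared run, AATATTTCTAATTATATCCA, is 20 bases long and starts 177 bases before the start of Myh4, 166 before that of Myh1 and 170 before that of Myh2. Among 33469 promoters of the same length it occurred in 5 (0.0149%), which belong to 4 genes, 3 of them these myosins. On either strand TATAAA was found in 4 of the 9 promoters (12.9% of all promoters), the E-box in 6 (65.5%), the muscle motif CATTCC known as MCAT in 2 (12.1%), the motif of MEF2 factors in 2 (2.96%) and the CArG box of serum response factor in 1 (1.5%). Both MEF2 matches, in Myh4 and Myh1, overlap the TTTATA in capitals. A match of letters is a description of the sequence only.

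The arrays showed the labelled tissue. The 7 measured genes common to all striated muscle had mean levels between 10.89 (Tcap) and 14.01 (Acta1) on the log2 intensity scale, against a median of 4.09 for control probe sets, while the 3 measured cardiac markers lay between 6.04 and 6.21. Array medians ran from 6.36 to 6.54. The 10 genes were among the brightest features: in mean level over all arrays they held ranks between 2 (Myh4) and 53 (Tnni2) of 22954, between 0.29 and 1.24 below the brightest. A rank on an array reflects the probes as well as the transcript, so levels were compared only within a gene.

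In each of 4 groups of 6 months 1 array stood apart at the bright end: aluminum replicate 1, cobalt replicate 2, lead replicate 3 and tungsten replicate 3. On these 4 the brightest probe set read between 13.44 and 13.65, against 13.80 to 14.13 on all others. The mean of the 10 genes was 12.62 to 12.99 on these 4 and 13.14 to 13.40 on the others, and that of the 100 brightest other probe sets 12.17 to 12.55 against 12.72 to 12.85. On aluminum replicate 1 the deviation from the median over all arrays ran from -0.56 (Myh4) to -0.89 (Myh2) on the log2 scale. On lead replicate 3 it was -0.98 for Pvalb and -0.23 for Myh4. The mean correlation of these 4 arrays with the others, 0.9847 to 0.9855, lay inside the range of all arrays (0.970 to 0.987). The mean of the 10 genes and that of the 100 brightest others had a Pearson r of 0.898 over all arrays and of 0.382 without these 4, so results that rest on them are followed by values without them.

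**Figure D1:**
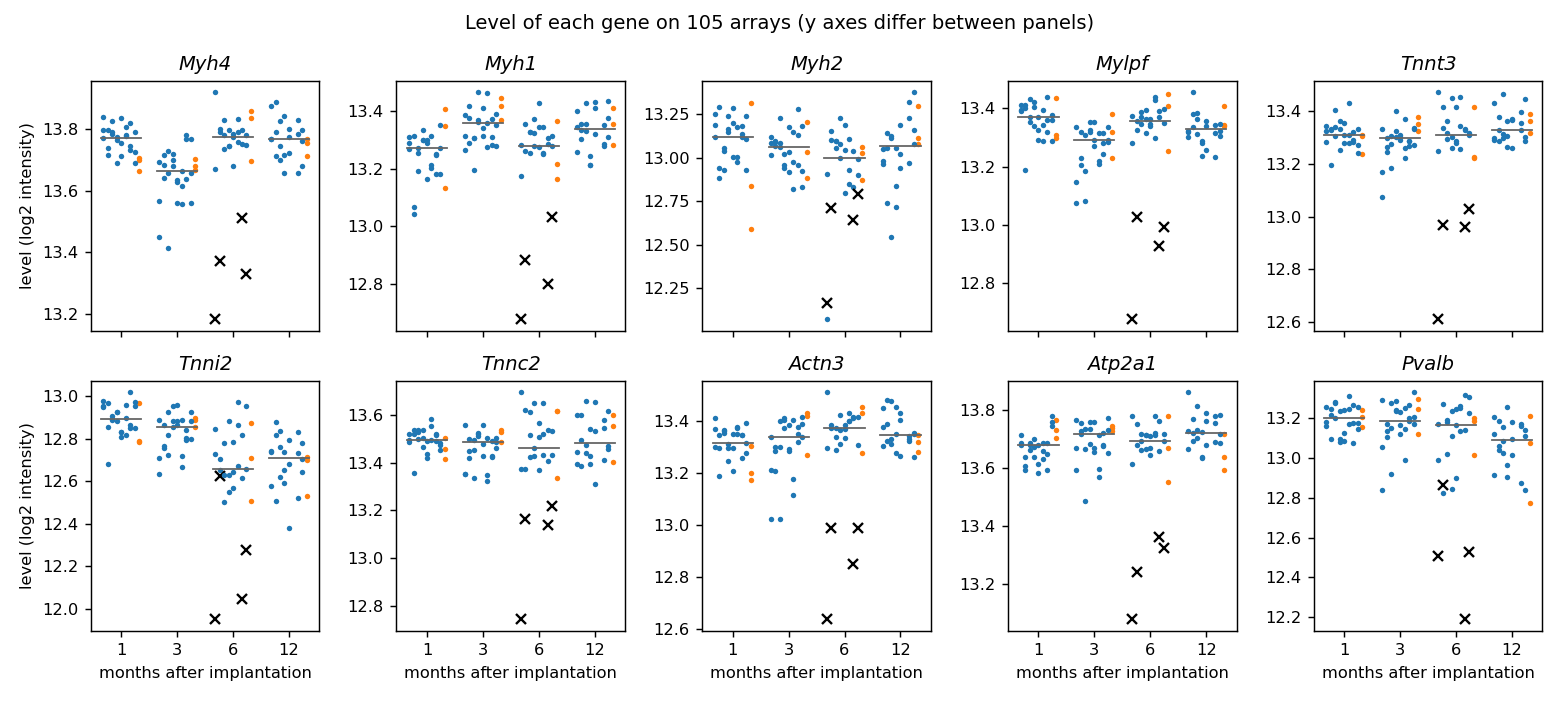
Level of each gene (log2 intensity, y axis) on every array by month after implantation (x axis), with the metals side by side within a month in the order Al, Co, Cu, DU, Fe, Ni, Pb, W, Ta. Blue points are metals, orange points tantalum, crosses the 4 arrays of 6 months that stand apart, and grey lines the median of the month; the crosses are low for nearly every gene, and the point beside the lowest cross of Myh2 is aluminum replicate 3.

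**Figure D2:**
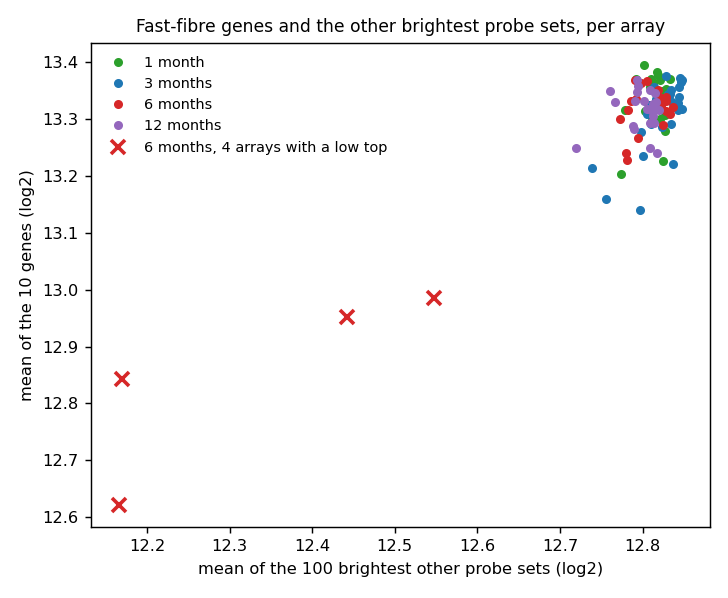
Mean of the 10 genes on each array (log2, y axis) against the mean of the 100 brightest other probe sets (log2, x axis), coloured by month. The 4 crosses lie below 12.99 on the y axis and below 12.55 on the x axis; the others start at 13.14 and 12.72.

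Levels lay close together across the 35 groups. The span between the lowest and the highest group mean of a gene was 0.23 for Myh4, 0.25 for Tnnt3, 0.26 for Actn3, 0.27 for Atp2a1 and Tnnc2, 0.29 for Mylpf, 0.37 for Myh1 and Pvalb, 0.47 for Tnni2 and 0.82 for Myh2 (log2). The SD between arrays of a group was between 0.11 (Atp2a1) and 0.18 (Pvalb) in the model. With the 35 group means of a gene put in order, no gap between neighbours exceeded the pooled SD of those neighbours for 9 of the genes. The exception was Myh2, with 1 gap of 34, between aluminum at 6 months (12.38 ± 0.46, SD, n = 3) and lead at 6 months (12.84). Ordered means lie close to their neighbours by construction, so small gaps do not show that groups are alike. For 7 of the 10 genes aluminum at 6 months had the lowest mean. The exceptions were Myh4, lowest in aluminum at 3 months (13.57 ± 0.12), and Tnni2 and Pvalb, both lowest in lead at 6 months (12.49 ± 0.40 and 12.88 ± 0.61). Without the 4 arrays that stand apart the spans ran from 0.15 (Atp2a1 and Tnnc2) to 0.34 (Tnni2) for 9 genes and stood at 0.72 for Myh2, the only gene then lowest in aluminum at 6 months.

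The first comparison asked whether an implanted metal changed the fast-fibre genes beyond what a tantalum pellet did. None of them passed the test with any metal at any month. In limma, 0 of 310 tests (10 genes, 31 comparisons) had an adjusted p below 0.05, where 0.443% of all tests of these comparisons did. An unadjusted p below 0.05 was reached in 7 of 310, against 7.73% of all tests. The 3 metal arrays lay wholly above or below the 3 tantalum arrays in 29 of 310 cases, 8 above and 21 below, against 13.2% of all tests. The 8 metals of a month share the same 3 tantalum arrays, so these counts are not independent.

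**Figure D3:**
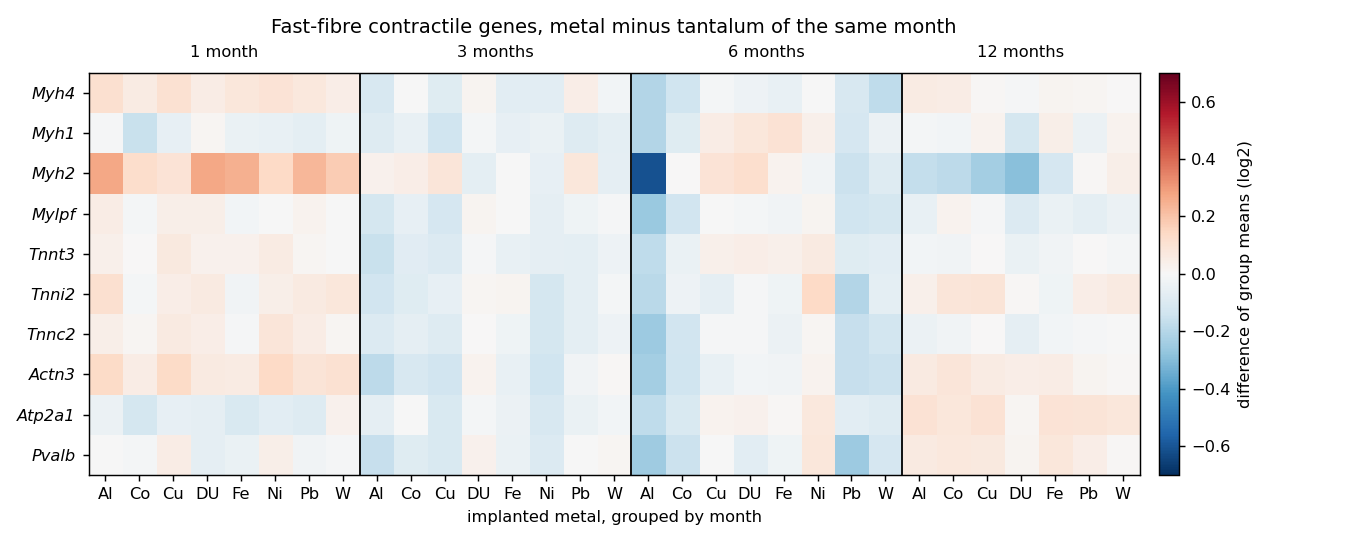
Difference of group means, metal minus tantalum of the same month (log2, colour), for the 10 genes (rows) and 31 comparisons (columns, grouped by month). Most cells are pale; the darkest is Myh2 with aluminum at 6 months (-0.61), and the blue columns of 6 months belong to aluminum, cobalt, lead and tungsten, each of which holds 1 of the 4 arrays that stand apart.

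The 95% intervals of the differences were narrow on the measured scale. These probe sets lie near its top, and whether changes are compressed there was not tested, so the bounds hold for measured differences and not for transcript amounts. Differences had standard errors between 0.09 (Atp2a1) and 0.15 (Pvalb) from a spread pooled over all groups, while single groups of 6 months reached an SD of 0.61 (Pvalb, lead). For 9 genes all 31 of the 95% intervals lay within a 1.5-fold change in either direction; for Myh2 it was 30 of 31. The widest bounds over the 31 comparisons were 0.759-fold to 1.234-fold for Myh4, 0.760-fold to 1.224-fold for Myh1, 0.731-fold to 1.184-fold for Mylpf, 0.723-fold to 1.321-fold for Tnni2 and 0.682-fold to 1.301-fold for Pvalb. For Myh2 they were 0.539-fold to 1.471-fold, and 0.669-fold at the low end outside 6 months. With the 4 arrays left out, the bounds for Myh2 were 0.571-fold to 1.462-fold and those of the other 9 genes lay between 0.772-fold and 1.291-fold.

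The comparisons with the most calls over all probe sets left these genes within that range. Cobalt at 3 months changed 5.46% of all probe sets, and the 10 genes had differences between -0.11 and 0.04. Nickel at 3 months changed 3.42%, and the 10 genes lay between -0.14 and -0.05, all of them below tantalum. Lead at 1 month changed 3.02%, with the genes between -0.09 and 0.23. The median size of the difference over the 10 genes was smaller than over all probe sets in these comparisons. It was 0.06 against 0.14 for cobalt, 0.08 against 0.13 for nickel and 0.07 against 0.17 for lead. Most probe sets are much dimmer than the 10 genes, and an effect of level on these sizes was not tested.

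Among the motors, Myh2, the heavy chain of 2A fibres, gave the widest differences. At 6 months its arrays read 12.17, 12.91 and 12.07 with aluminum and 13.06, 12.87 and 13.03 with tantalum. Aluminum replicates 1 and 3 lay below every tantalum array, and replicate 2 lay between them. The difference was -0.61 ± 0.14 (SE; 95% interval -0.89 to -0.32), with an adjusted p of 0.667 in limma (unadjusted 6.14e-05), in a comparison where 0 of 22954 probe sets passed. Without the 4 arrays that stand apart it was -0.50 (adjusted p = 0.995). The limma adjusted p was 0.0290 when adjusted over all 31 comparisons together, 0.0183 without replicate 2 of every group (-0.93) and 0.00832 against the other metals of the month (-0.60); it was 0.883 without replicate 3 (-0.43). On aluminum replicate 3 the median deviation of 11 slow-fibre genes from their medians over all arrays was -1.37, the lowest of any array, whereas that of the 10 fast genes was 0.06 (log2). On replicate 1, which stands apart at the bright end, these values were -0.57 and -0.68. The part of either array in the Myh2 difference was tested only by leaving it out. As a bulk measurement, a lower level cannot tell fewer fibres of a type from less RNA per fibre.

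Myh2 also varied within tantalum. At 1 month its tantalum arrays read 12.84, 12.59 and 13.31, and all 8 metals had a mean above theirs, by up to 0.27 ± 0.14 (aluminum, adjusted p = 0.585). At 12 months the arrays read 12.72, 13.06 and 12.84 with depleted uranium and 13.08, 13.11 and 13.30 with tantalum. These groups did not overlap, and the difference was -0.30 ± 0.14 (unadjusted p = 0.0427, adjusted p = 0.537). A moderated F test asked for each metal whether its distance from tantalum depended on the month: Myh2 with aluminum had an adjusted p of 0.157 (F = 6.76) and with depleted uranium 0.691. These were, without the 4 arrays, 0.306 and 0.631.

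Myh4, the heavy chain of 2B fibres, and Myh1, that of 2X fibres, stayed closer to tantalum. With aluminum at 6 months Myh4 read 13.18, 13.67 and 13.92 against 13.69, 13.86 and 13.84 in tantalum, a difference of -0.21 ± 0.10 (adjusted p = 0.965). The low value is the array that stands apart, and aluminum replicate 3 is the highest value of Myh4 on any array. At 1 month Myh4 was above tantalum without overlap in 6 of 8 metals, where the tantalum arrays read 13.66, 13.70 and 13.70 and lay close together. The 8 comparisons share these 3 tantalum arrays, and 0 of them passed. Over all probe sets and months arrays did not overlap, in either direction, in 13.2% of such tests, and the share at 1 month alone was not counted. The highest difference of Myh4 was 0.11 ± 0.10 with aluminum. Myh1 had its highest difference with iron at 6 months (0.10 ± 0.10) and its lowest with aluminum at 6 months (-0.20 ± 0.10).

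The regulatory light chain and the thin-filament genes followed the same outline. Mylpf, the light chain bound to fast heavy chains, had differences from -0.26 (aluminum, 6 months) to 0.05 (aluminum, 1 month). Tnnt3, which ties the troponin complex to tropomyosin, ranged from -0.18 (aluminum, 6 months) to 0.07 (copper, 1 month). Tnnc2, the calcium sensor, ranged from -0.25 (aluminum, 6 months) to 0.09 (nickel, 1 month). Tnni2, the inhibitory subunit, ranged from -0.20 (lead, 6 months) to 0.14 (nickel, 6 months), and its arrays read 12.62, 12.82 and 12.05 in lead and 12.51, 12.87 and 12.71 in tantalum of that month. The third lead array is 1 of the 4 that stand apart, and lead replicates 1 and 2 lie within the tantalum range.

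Actn3, the α-actinin of fast Z-discs, ranged from -0.24 (aluminum, 6 months) to 0.14 (nickel, 1 month). Atp2a1, the calcium pump of the fast sarcoplasmic reticulum, ranged from -0.18 (aluminum, 6 months) to 0.10 (aluminum, 12 months). Pvalb, the calcium buffer that speeds relaxation, ranged from -0.25 (lead, 6 months) to 0.08 (nickel, 6 months). Its arrays read 13.31, 13.14 and 12.19 with lead at 6 months and 13.20, 13.19 and 13.01 with tantalum. Here too a single array, lead replicate 3, set the mean.

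At 6 months the 10 genes had lower medians where an array stood apart, though none passed the test in any of these comparisons. The median difference of the 10 genes was -0.22 with aluminum, -0.12 with cobalt, -0.14 with lead and -0.10 with tungsten, and between -0.02 and 0.03 with the other 4 metals. Without the 4 arrays the medians of the first 4 metals were 0.00, -0.01, 0.02 and 0.01. The genes below tantalum went from 10 to 5 with aluminum, 9 to 6 with cobalt, 10 to 3 with lead and 10 to 4 with tungsten.

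Averaged over its months, no metal shifted a fast-fibre gene either. Of 80 tests 0 passed in limma, with 0.545% of all tests passing and 0 of 80 at an unadjusted p below 0.05 (12.2% of all tests). The means ran from -0.12 (Myh2, aluminum; 95% interval -0.26 to 0.02) to 0.04 (Myh2, lead). A change of the difference between months passed in 0 of 80 tests (0.699% of all tests), and 2 of 80, the Myh2 tests with aluminum and depleted uranium named above, had an unadjusted p below 0.05 (7.78% of all tests). In limma, leaving out the 4 arrays gave 0 calls in these tests and in those of single months as well, with 6 of 310, 0 of 80 and 4 of 80 at an unadjusted p below 0.05 for single months, means and changes between months.

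Other muscle genes were read in the same 31 comparisons from lists of known fibre genes. Ckm stands in both the glycolytic and the pan-muscle list, so its tests count in both. No gene of the other fast contractile and calcium-release list (12 measured), the glycolytic list (14), the slow-fibre list (11) or the pan-muscle list (7) passed in limma with any metal at any month, and 64 of their 1364 tests had an unadjusted p below 0.05. Of 8 embryonic and fetal contractile genes, 5 rose with nickel at 3 months: the fetal troponin T gene Tnnt2 by 2.65 ± 0.24, the fetal actin gene Actc1 by 2.10 ± 0.35, embryonic myosin Myh3 by 1.85 ± 0.21, its light chain Myl4 by 1.65 ± 0.22 and the adhesion molecule Ncam1 by 0.70 ± 0.19 (limma, adjusted p at most 0.0165), where 3.42% of all probe sets passed. Markers of other cells moved on the same arrays: 5 of 8 macrophage, 2 of 6 T and NK cell and 3 of 8 fibroblast and tendon genes were called higher. The median deviation of the macrophage list was 1.34 to 1.57 on the 3 nickel arrays and 0.02 to 0.84 on the 3 tantalum arrays, and that of the fibroblast and tendon list 0.27 to 0.53 and -0.15 to 0.12. Their part in the rise was not tested. Ncam1 fell with depleted uranium and with lead at 1 month (-0.91 and -0.75). Among 13 fibre-type regulators 4 tests passed, all lower: Sox6, a repressor of slow genes, with aluminum (-0.66 ± 0.14) and nickel (-0.50 ± 0.14) at 3 months, the myogenic factor Myod1 with aluminum at 3 months (-0.90 ± 0.20), and the nuclear receptor Esrrg with lead at 1 month (-0.68 ± 0.20).

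The second comparison asked how the fast-fibre genes changed with time after implantation, over the 8 metals with arrays at 1 and 12 months, tantalum included. Tnni2 fell from 1 to 6 and to 12 months, and Myh1 was slightly higher at 12 months; the other 8 genes did not pass at 12 months. In limma 2 of 10 genes passed at 12 against 1 month, where 44.1% of all probe sets did, 1 of them higher (23.4%) and 1 lower (20.7%). At 6 against 1 month 3 of 10 passed (36.8%), 0 higher (17.2%) and 3 lower (19.6%). When the 4 arrays were left out, 1 was higher and 2 were lower, and the median change of the 10 genes went from -0.06 to 0.02. At 3 against 1 month 3 of 10 passed (20.1%), 1 higher (9.81%) and 2 lower (10.3%). The median size of the change over the 10 genes was 0.03, 0.06 and 0.04 at 3, 6 and 12 months, against 0.08, 0.10 and 0.11 over all probe sets. These sizes hold on the measured scale, near the top of which compression was not tested. Month cannot be told apart from the age of the rats or from the cohort, since each month is a separate set of animals.

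**Figure D4:**
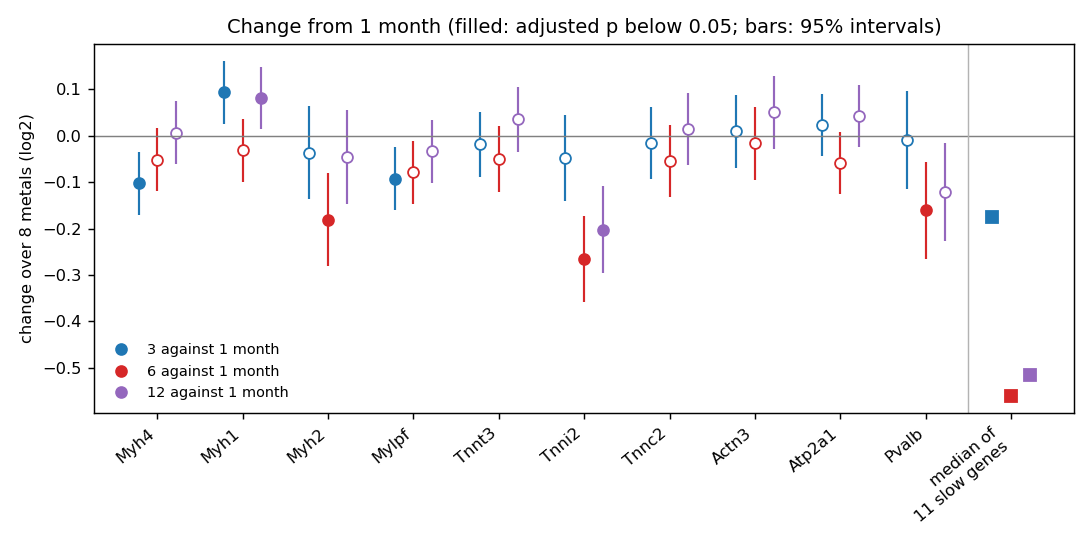
Change from 1 month at 3, 6 and 12 months (log2, y axis) for each gene, as the mean over 8 metals with 95% intervals (24 arrays each); filled points have an adjusted p below 0.05. Squares on the right are the median change of 11 slow-fibre genes, -0.18, -0.56 and -0.51; Tnni2 lies at -0.05, -0.27 and -0.20.

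Tnni2 passed at both late months. Over the 24 arrays of a month its lowest, median and highest levels were 12.68, 12.89 and 13.02 at 1 month, 12.63, 12.86 and 12.96 at 3 months, 11.95, 12.65 and 12.95 at 6 months, and 12.38, 12.71 and 12.88 at 12 months. The ranges overlap; the median of 6 months lay below the lowest array of 1 month and that of 12 months just above it. The change was -0.27 ± 0.05 at 6 months (adjusted p = 2.75e-06) and -0.20 ± 0.05 at 12 months (adjusted p = 0.000231), or 0.869-fold. Without the 4 arrays it was -0.18 at 6 months (adjusted p = 5.62e-05). It was below 0 in 8 of 8 metals at 12 months, from -0.27 with aluminum to -0.10 with cobalt. In 7 of 8 the 3 arrays of 12 months lay below the 3 of 1 month. Over all probe sets, arrays of these months did not overlap, in either direction, in 23.1% of such tests. Where same-numbered arrays of a month are alike, the metals are not independent. With tantalum the arrays read 12.79, 12.78 and 12.97 at 1 month and 12.53, 12.71 and 12.70 at 12 months. No single metal passed alone (lowest adjusted p = 0.276).

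The level of Tnni2 followed the replicate number at the late months. At 12 months replicate 1 was the lowest of its group in 8 of 8 metals and replicate 2 the highest in 8 of 8: the means over metals were 12.55 ± 0.08 for replicate 1, 12.79 ± 0.06 for replicate 2 and 12.72 ± 0.05 for replicate 3 (SD over 8 metals). At 6 months replicate 2 was the highest in 7 of 8, with means of 12.50, 12.82 and 12.55. At 1 month the means were 12.90, 12.86 and 12.90. Pvalb followed the number in another order: at 12 months replicate 3 was the lowest in 7 of 8 metals, with means of 13.18, 13.09 and 12.93, against 13.19, 13.18 and 13.19 at 1 month. Tnnt3 and Tnnc2 ran the other way, with replicate 3 the highest in 8 of 8 metals at 12 months (means 13.31, 13.31 and 13.41 for Tnnt3 and 13.41, 13.49 and 13.61 for Tnnc2), and Atp2a1 was highest in replicate 3 in 7 of 8. For Myh4, Myh1, Myh2, Mylpf and Actn3 no number was the highest or the lowest in more than 5 of 8 metals at 12 months. The labels do not say what a number shares across metals. Without replicate 1 the change of Tnni2 at 12 months was -0.12 (adjusted p = 0.0645), so that its call ended; without replicates 2 and 3 it was -0.27 and -0.21 and passed. With replicate numbers blocked by month the change was -0.20 (adjusted p = 6.69e-06). Where same-numbered arrays of a month are alike, a block takes out the spread between the 3 numbers, which is also the spread a change between months would have to exceed; its p-values are then too small, and those over 24 arrays may be as well.

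**Figure D5:**
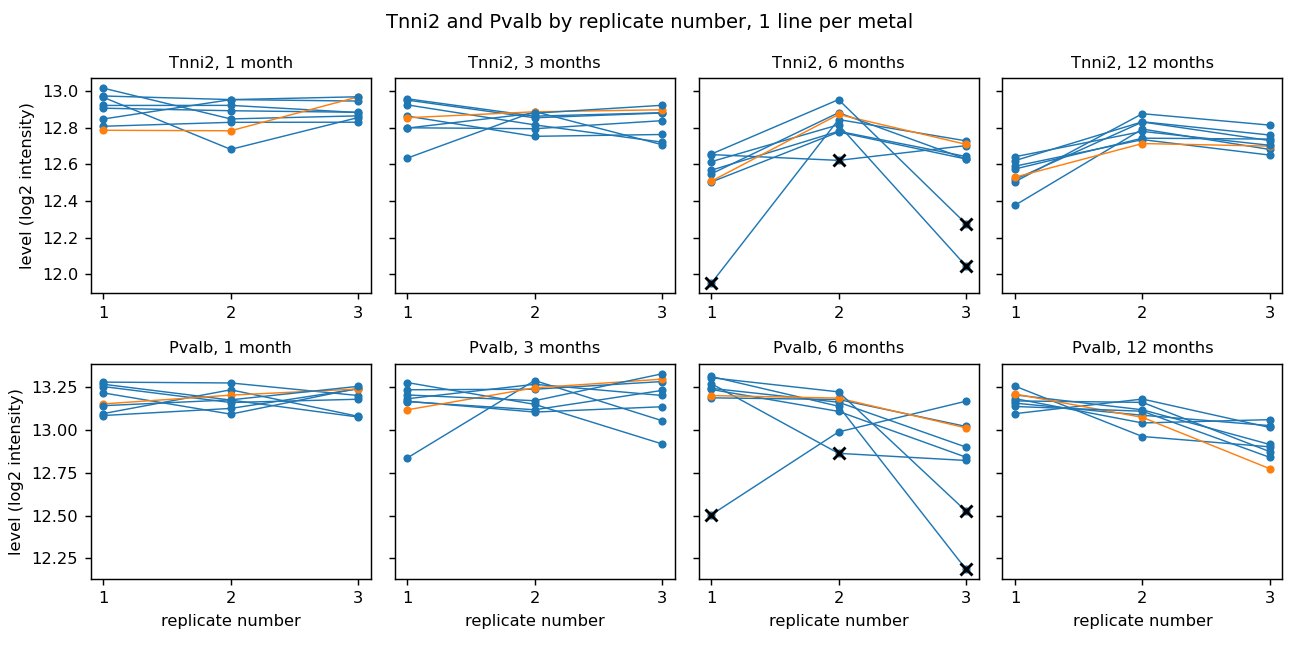
Level (log2 intensity, y axis) of Tnni2 (top) and Pvalb (bottom) by replicate number (x axis) at each month; lines join the 3 arrays of 1 metal, orange is tantalum and crosses are the arrays that stand apart. At 12 months replicate 1 is the lowest of Tnni2 in all 8 metals (mean 12.55), while replicate 3 is the lowest of Pvalb in 7 of 8 (mean 12.93).

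Pvalb was lower at the late months in the same direction as Tnni2. Its lowest, median and highest levels were 13.08, 13.19 and 13.28 at 1 month, 12.19, 13.15 and 13.31 at 6 months and 12.78, 13.09 and 13.26 at 12 months. At 6 months it fell by 0.16 ± 0.05 on the log2 scale (adjusted p = 0.0118), but without the 4 arrays the change was -0.06 (adjusted p = 0.296) and without replicate 3 -0.05 (adjusted p = 0.442), neither of which passed. At 12 months the change was -0.12 ± 0.05 (adjusted p = 0.0556), and it was below 0 in 8 of 8 metals, from -0.18 with tantalum to -0.05 with iron. It passed with the replicate block (adjusted p = 0.0235), with the limit just given, and without replicate 1 (-0.18, adjusted p = 0.0287). It also passed without the 4 arrays (adjusted p = 0.00648). These are all of 6 months, so leaving them out altered the spread of the model but not the change, which stayed at -0.12. Without replicate 3 the change at 12 months was -0.05 (adjusted p = 0.422).

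The 3 motors passed at different months or in different directions, and a difference between them was not tested. Myh1 had lowest, median and highest levels of 13.04, 13.27 and 13.41 at 1 month and of 13.21, 13.34 and 13.43 at 12 months. It rose by 0.09 ± 0.03 at 3 months (adjusted p = 0.0393) and by 0.08 ± 0.03 at 12 months (adjusted p = 0.0448), above 0 in 7 of 8 metals at 12 months, from -0.09 with depleted uranium to 0.19 with cobalt. Both calls ended without any 1 of the 3 replicate numbers (adjusted p between 0.0619 and 0.319), and the second also without any 1 of 6 of the 8 metals. Myh4 fell by 0.10 ± 0.03 at 3 months (adjusted p = 0.0245), from a median of 13.76 to 13.67, and was level again at 12 months (0.01 ± 0.03, median 13.77). Myh2 fell by 0.18 ± 0.05 at 6 months (adjusted p = 0.00286), by 0.13 without the 4 arrays (adjusted p = 0.0402), and stood at -0.05 ± 0.05 at 12 months (adjusted p = 0.481). The Myh2 call at 6 months ended without replicate 1 (-0.14, adjusted p = 0.127), after a second quantile normalization (-0.06, adjusted p = 0.389) and relative to the 100 brightest other probe sets (-0.10, adjusted p = 0.115).

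Mylpf fell by 0.09 ± 0.03 at 3 months (adjusted p = 0.0428), beside Myh4. The calls of Myh4 and Mylpf at 3 months ended without any 1 of the replicate numbers (adjusted p between 0.0842 and 0.245). Leaving out single arrays ended the call of Mylpf at 3 months in 25 of 96 cases and of Myh1 in 16 of 96 at 3 months and 25 of 96 at 12 months (adjusted p up to 0.0842). In 0 of 96 cases did it end a call of Tnni2, or those of Myh4 at 3 months or Myh2 and Pvalb at 6 months. Leaving out 1 array does not test what same-numbered arrays share. The Tnni2 call at 12 months and these calls of Myh4, Myh2 and Pvalb each ended without a whole replicate number, as given above.

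Tnnt3, Tnnc2, Actn3 and Atp2a1 did not pass at any month. At 12 months their changes were 0.04 ± 0.04, 0.01 ± 0.04, 0.05 ± 0.04 and 0.04 ± 0.03, with 95% intervals that stayed between -0.06 and 0.13. Tnnt3 ran from 13.26 to 13.47 over the 24 arrays of 12 months and from 13.20 to 13.41 at 1 month. Tnnc2 ran from 13.31 to 13.66 and from 13.36 to 13.54. Of the 3 troponin subunits only Tnni2 thus passed at 12 months, with a call that ended without replicate 1. Tnnt3 and Tnnc2 were within 0.04 of their level at 1 month. A difference between the subunits was not tested. At 6 months Actn3 was at -0.02 ± 0.04 (adjusted p = 0.787) with all arrays and at 0.07 without the 4 arrays (adjusted p = 0.0396).

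Metals did not differ detectably in this course. Fitted to each metal alone, 0 of 80 changes between 1 and 12 months passed (6.49% of all tests), 2 of 80 had an unadjusted p below 0.05, and in 23 of 80 the arrays of both months did not overlap (23.1% of all tests). A test of the difference among the 8 metals passed for 0 of 10 genes (0.54% of all probe sets), with 0 of 10 at an unadjusted p below 0.05 (11.5%). In tantalum alone 0 of 10 passed (7.85% of all probe sets) and 0 of 10 had an unadjusted p below 0.05, with changes from -0.18 (Pvalb) to 0.25 (Myh2).

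On the measured log2 scale slow-fibre genes moved more than the 10 fast ones on the same arrays. The mean levels of single slow genes ran from 7.20 to 13.03, while the 10 genes lie near the top of the scale. Whether changes are compressed there was not tested, nor was the share of slow fibres in the samples. The sizes therefore do not rank the response of slow and fast transcripts. At 6 and at 12 months all 11 measured slow genes fell, with medians of -0.56 and -0.51, and at 3 months 0 of 11 passed in limma, with 2 of 11 at an unadjusted p below 0.05. Over all probe sets 19.6% were lower at 6 months and 20.7% at 12 months. Tnni1, the slow counterpart of Tnni2, was at -0.95 ± 0.13 at 12 months (adjusted p = 1.19e-08), the slow troponin C Tnnc1 at -0.86 ± 0.15, the light chain Myl2 at -0.55 ± 0.11 and the tropomyosin Tpm3 at -0.58 ± 0.11. Without the 4 arrays, which are all of 6 months, 11 of 11 fell at both months as well. Leaving them out cannot move the changes at 12 months. The mean level of the 11 genes ran from 11.02 to 12.12 on the arrays of 1 month, from 9.86 to 11.38 at 6 months and from 9.88 to 11.75 at 12 months. Its lowest arrays were aluminum replicate 3 at 6 months and cobalt and copper replicates 3 at 12 months, where Myh2 read 12.07, 12.74 and 12.54.

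Fast genes outside the 10 and the glycolytic list are read against the 36.8% of all probe sets that passed at 6 months and the 44.1% at 12 months. Of 12 such fast genes measured, 1 rose and 5 fell at 6 months, and 2 rose and 3 fell at 12 months. Without the 4 arrays it was 2 and 4, and 2 and 5. Since these 4 are of 6 months, leaving them out alters the spread of the model at 12 months but not the changes. The same holds for the glycolytic list below. At 12 months the calcium channel subunit Cacng1 was at -0.65 ± 0.06 (adjusted p = 1.45e-16) and the calcium-storage protein Casq1 at -0.26 ± 0.04, while Jph1, which holds the reticulum to the membrane, was at 0.24 ± 0.04 and Trdn, a partner of the release channel, at 0.22 ± 0.04. The channel subunit Cacna1s was the third that fell (-0.09 ± 0.03). Of the 14 genes of the glycolytic list 1 rose and 7 fell at 6 months (3 and 3 without the 4 arrays). At 12 months 3 rose and 5 fell (3 and 7). The list also holds genes that code for no glycolytic enzyme, Ckm, Ampd1, Prkag3, Gpd1 and Fbp2 among them. At 12 months Fbp2, which works in the direction of glycogen synthesis, rose by 0.39 ± 0.06, the phosphofructokinase gene Pfkm by 0.19 ± 0.04 and Gpd1 by 0.14 ± 0.05. Prkag3, an AMPK subunit of fast fibres (-0.36 ± 0.08), Pkm (-0.20 ± 0.05), Aldoa (-0.17 ± 0.05), Pgam2 (-0.16 ± 0.04) and Gapdh (-0.08 ± 0.03) fell.

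Genes that all fibres share and the regulators of fibre type moved in both directions, against the same 44.1% of all probe sets at 12 months. Of 7 pan-muscle genes 1 rose and 3 fell at 12 months: the titin cap Tcap was at 0.17 ± 0.04, the Z-disc genes Ldb3 and Actn2 at -0.36 ± 0.06 and -0.23 ± 0.04, and the skeletal actin Acta1, the brightest probe set of the arrays, at -0.09 ± 0.03. Of 13 regulators 4 rose and 5 fell. Myog was at 0.20 ± 0.07, Sox6 at 0.12 ± 0.05 and Maf at 0.11 ± 0.04. Rcan1 was at -0.36 ± 0.13 and Eya4 at -0.09 ± 0.03. The homeobox factor Six4, which acts on fast genes, was at 0.39 ± 0.04, Prox1, which is known to act in slow fibres, at -0.70 ± 0.12, the cofactor Vgll2 at -0.30 ± 0.06 and Ppargc1a, which drives mitochondrial genes, at -0.27 ± 0.08. Of 8 embryonic and fetal genes 3 rose, Ncam1 by 0.65 ± 0.07, Chrng, the fetal subunit of the acetylcholine receptor, by 0.26 ± 0.06 and Myh8 by 0.16 ± 0.05, and 2 fell, Actc1 (-0.86 ± 0.12) and Myh3 (-0.36 ± 0.08).

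Markers of other cells moved with the months too. At 12 months 8 of 8 fibroblast and tendon genes fell (median -0.75), 8 of 8 macrophage genes (median -0.48), and 5 of 5 endothelial genes (median -0.45). Over all probe sets 20.7% were lower at that month. Of the T and NK cell genes 0 of 6 passed in limma, and 0 of 6 had an unadjusted p below 0.05. The mean level of the fibroblast and tendon list ran from 9.15 to 9.97 on the arrays of 1 month and from 7.99 to 8.93 at 12 months. That of the macrophage list ran from 6.96 to 8.28 and from 6.59 to 7.49, and that of the endothelial list from 8.14 to 8.58 and from 7.67 to 8.17. No gene of these lists had a mean at or below the control median, but that median does not mark detection. Mean levels ran from 4.23 to 5.96 in the T and NK list, and from 4.83 to 7.14 in 4 brain genes taken as absent. The T and NK genes are thus dim, and an effect of their level on the lack of calls was not tested. At 3 against 1 month 4 of these 6 genes passed in limma, all higher (9.81% of all probe sets). The part of these other cells in the changes of the fast-fibre genes was not tested.

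The likeness of the 10 genes to each other depended on the arrays that stand apart. Over the 35 group means, which share the arrays' brightness, Tnnt3 and Tnnc2 had a Pearson r of 0.90 (0.74 without the 4 arrays), Tnni2 and Pvalb of 0.88 (0.72), Mylpf and Tnnc2 of 0.85 (0.68) and Myh4 and Mylpf of 0.82 (0.78). Tnni2 was less like the other troponin genes, with r = 0.38 for Tnnt3 and 0.49 for Tnnc2, and -0.19 and 0.03 without the 4 arrays. Among the motors r was 0.13 between Myh4 and Myh1, 0.37 between Myh4 and Myh2 and 0.54 between Myh1 and Myh2, and -0.33, -0.09 and 0.17 without the 4 arrays. These values describe 35 points and carry no test.

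Outside the set, the genes most like the mean profile of the 10 on all arrays were Ckm (r = 0.93 over 35 group means), Eno3 (0.89), Pygm (0.88), Myl1 (0.87), Vdac1 (0.83), Slc25a4 (0.82), Ccng1 (0.81) and Gapdh (0.80). Leaving out the 4 arrays, Ckm and Eno3 had r = 0.72 and 0.67, and the other 6 lay between 0.38 (Vdac1) and 0.59 (Pygm). Ckm, the muscle creatine kinase gene, and Eno3, the muscle enolase gene, were then still among the 3 nearest, with Myom2, an M-band gene, first (0.72). Nearest to Tnni2 were the glycolytic genes Pkm, Pgam2 and Aldoa, with r of 0.92, 0.91 and 0.91 on all arrays and 0.85, 0.88 and 0.81 without the 4. Nearest to Pvalb were Myl1, Aldoa and Casq1, with r of 0.90, 0.89 and 0.89, and 0.78, 0.79 and 0.81 without the 4. Myh2 was nearest to Atp5f1a (0.80), a subunit of the mitochondrial ATP synthase, the outer membrane channel Vdac1 (0.80) and Coq8a (0.78), for which r was 0.45, 0.45 and 0.72 without the 4 arrays. Myh4 and Mylpf were nearest to Eno3 (0.76 and 0.86; 0.72 and 0.73 without the 4), and Myh1 to the myoglobin gene Mb (0.78 and 0.47). Tnnc2 was nearest to Eno3 (0.86 and 0.66) and Actn3 to the tropomyosin gene Tpm1 (0.84 and 0.75). Tnnt3 was nearest to Tpm1 with (0.89) and without them (0.79), whereas the likeness of Atp2a1 to Pygm, the glycogen phosphorylase of muscle, went from 0.70 to 0.17.

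Set against the slow list array by array, the fast genes gave different values with and without the arrays that stand apart, a choice made after seeing the data. On all arrays the correlation with the median deviation of the slow list was 0.40 for Myh2, 0.15 for Tnni2 and 0.07 for Pvalb. It was -0.31 for Actn3, -0.24 for Myh4, -0.20 for Tnnt3, -0.19 for Tnnc2, -0.17 for Mylpf, -0.12 for Atp2a1 and -0.05 for Myh1. On the arrays other than those 4 it was 0.37 for Myh2, 0.04 for Tnni2 and -0.09 for Pvalb, and -0.70 for Actn3, -0.59 for Tnnt3, -0.49 for Tnnc2 and Mylpf, -0.48 for Myh4, -0.46 for Atp2a1 and -0.29 for Myh1. Myh2 was positive and Actn3 negative in both. The arrays share their normalization and months, so these values are a description.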

How the data were processed

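Gastrocnemius RNA was measured on Clariom S Rat arrays. The deposited values are log2 intensities, which the authors made by RMA, using oligo in R 4.0.1, per the submitters' processing notes; whether all arrays entered 1 run is not given in the sources used here. Groups and replicate numbers follow the labels. Of 22977 probe sets 23 controls were left out, and 22954 were tested without a filter. All arrays entered a single linear model with a mean for each group in limma 3.58.1 under R 4.3.3 (lmFit, eBayes; 70 residual and 7.25 prior degrees of freedom); differences carry the model's SE, tests are moderated t or F and two-sided, and p-values were adjusted by Benjamini-Hochberg over all probe sets of a comparison, with calls at an adjusted p below 0.05. The code was tested on simulated data. The number of arrays limits the precision. No deposited column was left unused.

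Symbols came from a probe table updated through RefSeq gene IDs; no coordinates of probe sets are given. The rule for names took all 10 genes, of each list up to 4 genes with the smallest adjusted p and those needed to show a count of 5 or fewer, and the genes nearest in profile. Genes behind the list counts at 6 months and behind the counts of cell markers were not named. The members and lists were chosen with earlier results of these data known. Same-numbered arrays of a metal and tantalum deviated together (every r above 0.1) in 0 of 8 comparisons at 1 month and 0 of 8 at 3. They did so in 8 of 8 at 6 and 5 of 7 at 12 months. By this check of the data the numbers pair the arrays at 6 months and, in those 5 comparisons, at 12 months. The labels do not say what the numbers share. Outside the replicate block the model took the arrays as unpaired.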

Additional observations from a re-analysis of the deposited data

Results flagged for a closer look

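For 4 genes of immature muscle the difference between nickel and tantalum changed between months, by limma's moderated F test over 1, 3 and 6 months, which 1.22% of all probe sets passed and 0 of the 10 fast-fibre genes. Tnnt2 (adjusted p = 5.95e-07) stood at 0.66 ± 0.24 at 1 month, 2.65 ± 0.24 at 3 months and 0.13 ± 0.24 at 6 months (log2, nickel minus tantalum, SE). Myh3 (adjusted p = 0.000124) stood at 0.32, 1.85 and 0.17, Actc1 (adjusted p = 0.00117) at -0.13, 2.10 and -0.42, and Myl4 (adjusted p = 0.0365) at 0.63, 1.65 and 0.48. Each of these 4 was highest at 3 months. The macrophage genes C1qb (adjusted p = 0.00154) and Laptm5 (0.0113) and the fibroblast gene Lum (0.00804) passed the same test with nickel.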

How the results depend on the processing

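Of 8 counts, those of the metal means, of tantalum alone and of both tests of differences stayed at 0 under every alternative that could be fitted, and the count at 6 against 1 month stayed within 1.5 times of 3. The count of metal and month tests went from 0 to 1 with adjustment over all comparisons, without replicate 2 and with the other metals as reference (0 to 1 over the replicates left out); the test is that of Myh2 with aluminum at 6 months each time. The count at 12 against 1 month went from 2 to 1 at an adjusted p below 0.01, without any 1 replicate (1 each) and without cobalt, copper, iron, lead, tungsten or tantalum (1 each). Without replicate 1 the remaining call was that of Pvalb, which had none in the main fit. Without replicate 2 or replicate 3 it was that of Tnni2. The count at 3 against 1 month went from 3 to 0 at an adjusted p below 0.01 and without any 1 replicate (0 each). At 6 months, Myh1 turned to 0.0654 (adjusted p = 0.0249) and Actn3 to 0.0747 (0.0157) after a second quantile normalization, and Actn3 to 0.0682 relative to the 100 brightest other probe sets (0.0434) and to 0.0715 without the 4 arrays (0.0396). After the second normalization Myh2 and Pvalb lost their calls at 6 months (-0.06 and -0.04), as they did relative to the brightest probe sets (-0.10 and -0.08). Leaving out the 4 arrays and centring on the brightest probe sets were settings chosen after seeing the data. The replicate block made Pvalb pass at 12 months (-0.12, adjusted p = 0.0235), left 3 calls at 12, 6 and 3 months each, and changed no other call. The causes were not tested. With 3 pools per group the SE of 0.09 to 0.15 limits which differences from tantalum could be seen.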
